A study of Mus musculus with 4 samples.

Results

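Chromatin accessibility was examined at 10 genes grouped as DNA methylation and clonal hematopoiesis regulators, some of which act on histones. They are Dnmt1, Dnmt3a, Dnmt3b, Tet1, Tet2, Tet3, Ezh2, Bmi1, Asxl1 and Kmt2a. The genes were chosen by name, with earlier results of these data known. Each locus was taken as the gene body and the 5000 bp upstream of it. All 10 had at least 1 peak of open chromatin, among 17183 protein-coding genes with a peak. Together they held 83 of the 93513 peaks, 16 of them promoter peaks, meaning peaks within 1000 bp of a start of a protein-coding transcript of the gene, and 67 other peaks.

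The data are single-cell ATAC-Seq counts, in which the transposase Tn5 marks open DNA, of long-term hematopoietic stem cells (LT-HSCs) from C57BL/6JRj mice aged 22 to 28 months. The labels name 2 samples for the table used, CLCA3A1high and CLCA3A1low LT-HSCs, sorted with an antibody against the surface protein CLCA3A1, and each sample pooled 2500 cells from each of 4 mice. Samples of young mice (3 to 4 months) and of old mice (22 to 28 months) not split by CLCA3A1 belong to the same series and were not analyzed here. The cells of the table carry a barcode suffix of 1 or 2, and no label states which suffix is CLCA3A1high. The suffixes are therefore called set 1 and set 2, the values below describe these sets, and no direction can be read as an effect of CLCA3A1. There is 1 library per set and no replicate, so no p-value is given, and all intervals are exact 95% intervals that cover counting error only. Most nonzero counts (88.7%) were even, as they would be if a fragment brings a pair of ends, which was not tested. Counts that come in pairs are not independent, so these intervals are too narrow. For the 10 genes, where an interval that excludes 0 includes it once each peak is counted once per cell, that second interval is given too.

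Set 1 held 818 cells and 13050952 counts and set 2 held 636 cells and 9820094 counts. No barcode sequence occurred in both sets. The loci of all 8 LT-HSC markers examined had peaks, with a summed 839 CPM (counts scaled to 1000000 per set) in set 1 and 718 in set 2. The multipotent progenitor markers Flt3, Cd34 and Cd48 summed to 112 CPM in set 1 and 203 in set 2, a log2 ratio of -0.86. The lists of 5 B cell, 5 granulocyte and monocyte, 4 erythroid and 4 megakaryocyte markers had log2 ratios of 0.13, -0.100, 0.37 and 0.24, with 5, 4, 3 and 3 genes that held a peak. Of 5 T cell markers 2 had a peak, and Cd3e, Cd3g and Cd8a had none. The loci of Ly6g, Slc4a1 and Ppbp held no peak either. The sets thus differed most in progenitor marker accessibility, and the part of the marker differences in the results below was not tested.

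DNA methylation is written by the DNMT enzymes. DNMT1 copies the methylation of the parental strand after replication, whereas DNMT3A and DNMT3B methylate new sites. The TET enzymes oxidize 5-methylcytosine and so start its removal. EZH2 is the methyltransferase of Polycomb complex PRC2, BMI1 is a subunit of Polycomb complex PRC1, ASXL1 partners the histone H2A deubiquitinase BAP1, and KMT2A (MLL1) methylates histone H3 at lysine 4. DNMT3A, TET2 and ASXL1 are the genes most often mutated in human clonal hematopoiesis, in which a mutated stem cell clone expands with age, and BMI1 is needed for self-renewal of HSCs.

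The promoters of the 10 genes were accessible in both sets. The fold used for sums per gene is a log2 ratio of at least 0.32 in size, set 1 over set 2. Of the 10 promoter sums 2 passed it, Tet1 and Bmi1, both higher in set 1. Over 14875 protein-coding genes with at least 50 counts in promoter peaks, 23.7% passed this fold, 13.4% with the higher value in set 1 and 10.3% in set 2, so the share among the 10 genes was close to that of all genes. With each peak counted once per cell, 0 of the 10 promoters passed, and the share of all genes under this counting was not determined. The median log2 ratio of set 1 over set 2 was 0.0033 for the 10 genes and 0.0080 for all genes. Of the 10 genes 5 were above 0 and 5 below. At the level of the whole locus none passed the fold, against 23.8% of 16673 genes. The Bmi1 locus includes the promoter peak of the neighboring gene Commd3. With the gene body only, which leaves this peak out, Bmi1 had a log2 ratio of 0.32 (0.13 to 0.53) and passed. For other peaks summed per gene, 1 of 10 did, Tet2, against 46.2% of 11428 genes. At the stricter fold of 1.5, 0 of 10 promoter sums, 0 of 10 sums of other peaks and 0 of 10 loci passed, against 8.83%, 24.1% and 8.90% of all genes.

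**Figure D1:**
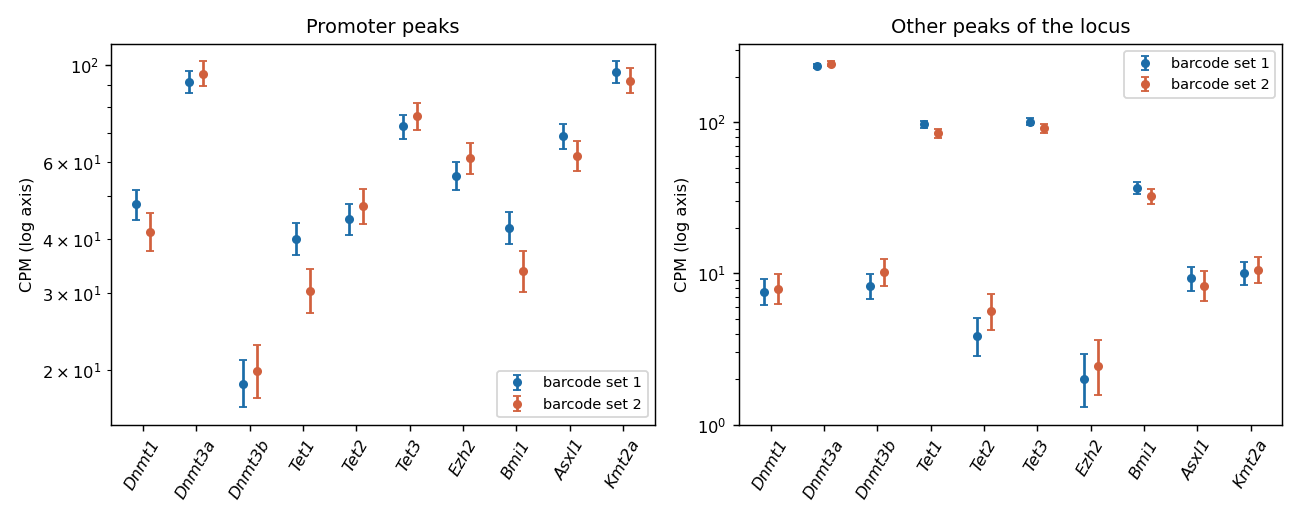
CPM (log axis) of each barcode set in the promoter peaks (left) and the other peaks (right) of the 10 genes, with points at the value and bars for the exact 95% Poisson interval. The intervals of the 2 sets are apart at the promoters of Tet1 and Bmi1 and overlap at the other 8 promoters, and the other peaks of Dnmt3a, Tet1 and Tet3 hold the most counts. The value of Bmi1 on the right is the promoter peak of its neighbor Commd3.

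The maintenance methyltransferase gene Dnmt1 (ENSMUSG00000004099.16, GRCm38 chr9:20907209-20959888, minus strand) had 1 promoter peak, chr9:20951996-20953451, with 47.9 CPM (44.2 to 51.8) in set 1 against 41.4 (37.5 to 45.7) in set 2. The log2 ratio was 0.21 (0.026 to 0.39), and with each peak counted once per cell it was 0.15 (-0.15 to 0.45), an interval that includes 0. This peak covered the 3 annotated starts from 20952605 to 20952979. No peak lay within 1000 bp of the start at 20959888, the outermost of the gene. Per kb of promoter peak, Dnmt1 had 31.0 CPM over both sets, the highest level of the 10 genes and above 84.4% of all genes with promoter counts. The most counted other peak, chr9:20961462-20961934, lies upstream of the outermost start and had 3.60 CPM in set 1 and 4.07 in set 2, a log2 ratio of -0.18 (-0.82 to 0.47).

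The de novo methyltransferase gene Dnmt3a (ENSMUSG00000020661.15, chr12:3806007-3914443, plus strand) was the most extensively accessible of the 10 loci. It held 25 peaks and 7595 counts, with 327 CPM (317 to 337) in set 1 against 339 (327 to 351) in set 2, a log2 ratio of -0.051 (-0.12 to 0.015). Only 28.0% of its counts lay in promoter peaks, whereas the median over 15207 genes was 82.7%. Its density of 22.0 peaks per 100 kb exceeded that of 88.0% of genes with a peak.

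Dnmt3a has a first promoter, which gives the long protein, and an internal promoter, which gives the shorter form DNMT3A2. Both were open, and their ratios between the sets had opposite signs. The first promoter peak, chr12:3805827-3809098, had 52.0 CPM in set 1 and 41.5 in set 2, a log2 ratio of 0.32 (0.14 to 0.50). The internal promoter peak, chr12:3890471-3893752, had 39.2 CPM in set 1 and 50.9 in set 2, a log2 ratio of -0.38 (-0.56 to -0.20). Counted once per cell the ratios were 0.19 (-0.11 to 0.49) and -0.39 (-0.69 to -0.087), which overlap slightly, and the difference between both promoters was not tested. The first promoter was open in 29.1% of all cells of set 1 and 24.4% of set 2, and the internal one in 23.0% and 28.8%. The summed Dnmt3a promoters had 91.5 CPM in set 1 and 95.3 in set 2. A weak promoter peak, chr12:3861605-3862152, lies beside a start at 3861021 and held only 3 counts in set 1 and 27 in set 2, a log2 ratio of -3.58 (-5.94 to -1.88). The last promoter peak held 3 counts in all.

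The sequences before the starts of both promoters are shown since they differ in CpG content, the substrate of the enzymes encoded here. They are GRCm38 reference sequence from RefSeq, on the strand of the gene, with bases annotated as untranslated left out, and capitals mark short words that were searched on both strands. These words stand for factors that bind them: GGGCGG for the SP and KLF families, GAGGAA for the core of the PU.1 site, CACGTG for the E-box that many helix-loop-helix proteins bind, CCAAT for the promoter factor NFY, TGTGGT for the RUNX family and AGATAAG for the GATA family. Words of 3 further kinds were searched and do not occur in the sequences printed, namely the longer PU.1 word GAGGAAGT (which contains the core), the word CCGGAAGT for other ETS family members, and the AP-1 word TGANTCA with any base at N.
Dnmt3a first promoter, chr12:3806730-3806979: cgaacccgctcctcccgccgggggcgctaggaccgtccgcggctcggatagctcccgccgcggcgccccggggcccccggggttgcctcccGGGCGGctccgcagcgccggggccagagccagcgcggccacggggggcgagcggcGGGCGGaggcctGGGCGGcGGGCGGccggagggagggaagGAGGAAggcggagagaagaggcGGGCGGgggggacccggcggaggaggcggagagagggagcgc
Dnmt3a internal promoter, chr12:3891494-3891727: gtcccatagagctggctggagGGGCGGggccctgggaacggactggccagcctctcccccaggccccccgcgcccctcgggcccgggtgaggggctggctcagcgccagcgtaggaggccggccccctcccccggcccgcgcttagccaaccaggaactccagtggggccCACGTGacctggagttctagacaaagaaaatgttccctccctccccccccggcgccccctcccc
The first holds 38 CpG dinucleotides in 250 bp, an observed over expected ratio (given its C and G content) of 0.938. The internal one holds 15 in 234 bp, a ratio of 0.486, and its E-box word was found in 7.15% of all 32851 RefSeq promoter windows of 300 bp.

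The 2 most accessible peaks of Dnmt3a were not promoters but intronic. The peak chr12:3870028-3872173, 65093 bp from the gene start, had 78.2 CPM in set 1 and 77.2 in set 2, a log2 ratio of 0.018 (-0.12 to 0.16), and was open in 38.8% and 39.3% of cells. The peak chr12:3854670-3856908 had 61.8 CPM in set 1 and 81.7 in set 2, a log2 ratio of -0.40 (-0.55 to -0.26), and was open in 34.1% and 40.1% of cells. The second ratio was also below 0 with each peak counted once per cell, at -0.30 (-0.55 to -0.047). By comparison, the median non-promoter peak of the table was open in 2.61% of cells and the median promoter peak in 15.7%. Over all genes with a promoter peak, 16.4% had a most counted peak that was not a promoter peak. The central 300 bp of the second peak, the one with the lower ratio, are shown because they are CpG-poor, with 1 CpG dinucleotide, and carry none of the words searched.
Dnmt3a intron peak, chr12:3855640-3855939: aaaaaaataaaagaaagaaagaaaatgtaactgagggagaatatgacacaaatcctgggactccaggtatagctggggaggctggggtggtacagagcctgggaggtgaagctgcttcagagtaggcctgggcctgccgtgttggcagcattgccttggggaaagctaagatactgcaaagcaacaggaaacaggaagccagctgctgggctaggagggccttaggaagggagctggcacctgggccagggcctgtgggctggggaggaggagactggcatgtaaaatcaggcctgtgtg

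Other peaks of Dnmt3a differed in both directions. Of 13 with at least 20 counts, 9 differed at least 1.5-fold, 5 higher in set 1 and 4 higher in set 2. Among all 63511 non-promoter peaks of the table with as many counts, 46.3% differed by this fold. The intronic peak chr12:3868113-3869249 had 12.7 CPM in set 1 and 22.7 in set 2, a log2 ratio of -0.84 (-1.13 to -0.54). The peak chr12:3887368-3887944, upstream of the internal promoter, had 3.91 CPM in set 1 and 1.22 in set 2, a log2 ratio of 1.68 (0.75 to 2.72). A pair of weak intronic peaks near the first promoter, chr12:3816018-3816366 and chr12:3817084-3817463, had log2 ratios of 2.17 (0.40 to 4.58) and 2.50 (0.99 to 4.46) on only 21 and 34 counts. Counted once per cell, the first of these was 1.89 (-0.34 to 5.13), which includes 0. The peak chr12:3823470-3824088 had a log2 ratio of -1.24 (-2.16 to -0.36), or -0.91 (-2.24 to 0.36) counted once per cell. The peak chr12:3833227-3835617, at an untranslated exon, had 48.0 CPM in set 1 and 36.4 in set 2, a log2 ratio of 0.40 (0.21 to 0.59). Over the locus, whose log2 ratio was -0.051, peaks higher in either set occurred side by side.

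Dnmt3b (ENSMUSG00000027478.15, chr2:153649450-153687730, plus strand), the other de novo enzyme, had the lowest promoter accessibility of the 10 genes, 10.9 CPM per kb over both sets. Its promoter peak, chr2:153648747-153650495, had 18.6 CPM (16.4 to 21.1) in set 1 against 19.9 (17.2 to 22.8) in set 2, with a log2 ratio of -0.093 (-0.37 to 0.19). The intronic peak chr2:153651040-153651949, next to the promoter, had 3.37 CPM in set 1 and 6.82 in set 2, a log2 ratio of -1.02 (-1.60 to -0.45). A second intronic peak, chr2:153668674-153669147, had 4.52 CPM in set 1 and 3.16 in set 2, a log2 ratio of 0.52 (-0.13 to 1.19) that counting error covers.

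Of the TET genes, Tet1 (ENSMUSG00000047146.17, chr10:62804570-62908996, minus strand) had the largest promoter difference of the 10 genes. Its promoter peaks had 39.9 CPM (36.6 to 43.5) in set 1 against 30.3 (27.0 to 34.0) in set 2, a log2 ratio of 0.40 (0.19 to 0.61). This exceeded 89.8% of gene promoters, and 13.4% of promoters passed the fold with the higher value in set 1. Counted once per cell the ratio was 0.30 (-0.039 to 0.63), and in cells thinned to equal depth 0.60 (0.19 to 1.02). Almost all counts came from the peak chr10:62885695-62887655, which covers the starts at 62887324 and 62887512. No peak lay within 1000 bp of the outermost start at 62908996. The Tet1 locus as a whole had 137 CPM (130 to 143) in set 1 against 115 (108 to 122) in set 2, a log2 ratio of 0.25 (0.14 to 0.36), also above 0 with each peak counted once per cell (0.23, 0.065 to 0.40).

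Within the Tet1 gene body, peaks with opposite ratios lay close together. Of 11 other peaks with at least 20 counts, 6 were at least 1.5-fold higher in set 1 and 2 in set 2. Among all non-promoter peaks of the table with as many counts, 23.5% were so in set 1 and 22.9% in set 2. The intronic peak chr10:62843512-62844506 had 13.8 CPM (11.9 to 16.0) in set 1 against 5.19 (3.87 to 6.83) in set 2, a log2 ratio of 1.41 (0.95 to 1.89). The peaks chr10:62858839-62859831 and chr10:62846929-62847812 had log2 ratios of 1.22 (0.72 to 1.74) and 0.69 (0.29 to 1.09). In contrast, chr10:62863480-62864109 had 3.52 CPM (2.58 to 4.70) in set 1 against 10.2 (8.29 to 12.4) in set 2, a log2 ratio of -1.53 (-2.07 to -1.01). All 4 of these ratios had intervals apart from 0 with each peak counted once per cell as well. The most counted other peak, chr10:62865025-62866653, lies beside the last of these and had 21.2 CPM in set 1 and 25.3 in set 2, a log2 ratio of -0.25 (-0.50 to 0.0023). The promoter stretch and the centres of the peaks with the highest and the lowest of the 4 ratios are shown for comparison. The peak higher in set 1 carries an SP/KLF and an NFY word and the peak higher in set 2 a RUNX word, words that 9.39%, 30.0% and 30.5% of all 63511 non-promoter peak centres hold.
Tet1 promoter, chr10:62887325-62887412: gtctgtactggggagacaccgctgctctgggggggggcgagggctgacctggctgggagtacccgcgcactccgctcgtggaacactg
Tet1 peak higher in set 1, chr10:62843860-62844159: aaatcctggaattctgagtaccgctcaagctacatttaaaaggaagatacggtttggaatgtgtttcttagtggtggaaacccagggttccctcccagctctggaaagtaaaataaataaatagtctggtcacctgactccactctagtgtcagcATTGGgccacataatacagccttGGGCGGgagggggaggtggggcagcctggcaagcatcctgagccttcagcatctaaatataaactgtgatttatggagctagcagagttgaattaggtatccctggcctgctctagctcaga
Tet1 peak higher in set 2, chr10:62863645-62863944: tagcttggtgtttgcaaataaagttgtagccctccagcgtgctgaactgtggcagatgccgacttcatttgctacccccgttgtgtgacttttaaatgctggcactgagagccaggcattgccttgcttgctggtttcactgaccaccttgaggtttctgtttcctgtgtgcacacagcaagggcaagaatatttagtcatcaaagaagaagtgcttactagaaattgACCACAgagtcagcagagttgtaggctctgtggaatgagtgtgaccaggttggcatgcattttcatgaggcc

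Tet2 (ENSMUSG00000040943.12, chr3:133463679-133545139, minus strand) differed from Tet1 and Tet3 in that its accessibility was nearly confined to the promoter. The promoter peak, chr3:133543037-133545660, held 90.9% of the counts of the locus, with 44.3 CPM (40.8 to 48.1) in set 1 against 47.5 (43.2 to 52.0) in set 2. The log2 ratio was -0.100 (-0.28 to 0.080), within counting error. The 5 other peaks summed to 3.83 CPM (2.84 to 5.05) in set 1 against 5.60 (4.22 to 7.29) in set 2, a log2 ratio of -0.55 (-1.13 to 0.031) on 105 counts. Counted once per cell this was -0.84 (-1.67 to -0.033). The most counted of them, the intronic chr3:133526156-133526593, had 2.30 CPM in set 1 and 2.04 in set 2, a log2 ratio of 0.17 (-0.69 to 1.07). The intronic peak chr3:133530737-133531109 had 1.30 CPM in set 1 and 3.16 in set 2, a log2 ratio of -1.28 (-2.22 to -0.38). The Tet2 promoter has the highest CpG ratio among the 10 genes, 1.17 in its RefSeq window, above 99.2% of all windows. The 250 bp before the start hold 51 CpG dinucleotides.
Tet2 promoter, chr3:133544391-133544640: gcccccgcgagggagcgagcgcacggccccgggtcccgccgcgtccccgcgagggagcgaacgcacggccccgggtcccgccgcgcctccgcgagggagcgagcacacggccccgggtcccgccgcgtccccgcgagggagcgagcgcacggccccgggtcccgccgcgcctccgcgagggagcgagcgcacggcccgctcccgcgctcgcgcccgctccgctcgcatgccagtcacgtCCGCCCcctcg

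Tet3 (ENSMUSG00000034832.15, chr6:83362373-83459084, minus strand) had 2 promoters whose ratios had opposite signs. The peak chr6:83454906-83457809, at the upstream start 83456392, had 36.1 CPM in set 1 and 46.0 in set 2, a log2 ratio of -0.35 (-0.54 to -0.16). The peak chr6:83440715-83442277, at the downstream start 83441675, had 36.2 CPM in set 1 and 30.3 in set 2, a log2 ratio of 0.25 (0.041 to 0.47). Counted once per cell these became -0.19 (-0.51 to 0.13) and 0.20 (-0.15 to 0.55), both including 0. Their sum, 72.3 CPM (67.7 to 77.0) in set 1 against 76.4 (71.0 to 82.0) in set 2, had a log2 ratio of -0.080 (-0.22 to 0.060).

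The Tet3 gene body held 11 other peaks with at least 20 counts, of which 3 were at least 1.5-fold higher in set 1 and 2 in set 2. Among all non-promoter peaks of the table with as many counts, 23.5% were so in set 1 and 22.9% in set 2. The most counted of the 11, chr6:83381361-83382397, had 28.7 CPM in set 1 and 28.9 in set 2. The intronic peak chr6:83408248-83409227 had 6.82 CPM (5.48 to 8.39) in set 1 against 2.34 (1.48 to 3.51) in set 2, a log2 ratio of 1.54 (0.87 to 2.27). The intronic peak chr6:83436512-83437097 had 1.46 CPM (0.877 to 2.27) in set 1 against 4.38 (3.17 to 5.90) in set 2, a log2 ratio of -1.59 (-2.45 to -0.78). Both intervals were apart from 0 with each peak counted once per cell. The centre of the first peak carries a GATA word and no other word searched, whereas that of the second carries NFY words and the PU.1 core. Over all peak centres at least 1.5-fold higher in set 1 or in set 2, the GATA word occurred in 7.38% and 4.36%, respectively. The PU.1 core occurred in 35.3% and 49.0%, and the NFY word in 32.1% and 28.2%. Whether these words bear on the ratios of the 2 peaks was not tested. The words had been chosen with earlier results of these data known.
Tet3 peak higher in set 1, chr6:83408588-83408887: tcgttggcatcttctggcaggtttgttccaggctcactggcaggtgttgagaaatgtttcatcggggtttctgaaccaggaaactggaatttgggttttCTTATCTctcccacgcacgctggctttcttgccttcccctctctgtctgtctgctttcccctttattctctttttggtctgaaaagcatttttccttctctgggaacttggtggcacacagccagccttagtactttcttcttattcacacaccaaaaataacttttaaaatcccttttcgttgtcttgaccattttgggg
Tet3 peak higher in set 2, chr6:83436655-83436954: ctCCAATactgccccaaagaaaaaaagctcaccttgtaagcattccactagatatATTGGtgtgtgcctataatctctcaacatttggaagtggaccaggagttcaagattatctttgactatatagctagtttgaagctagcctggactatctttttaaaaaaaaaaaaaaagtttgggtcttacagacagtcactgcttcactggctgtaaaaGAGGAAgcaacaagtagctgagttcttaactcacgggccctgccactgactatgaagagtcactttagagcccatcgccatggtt

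**Figure D2:**
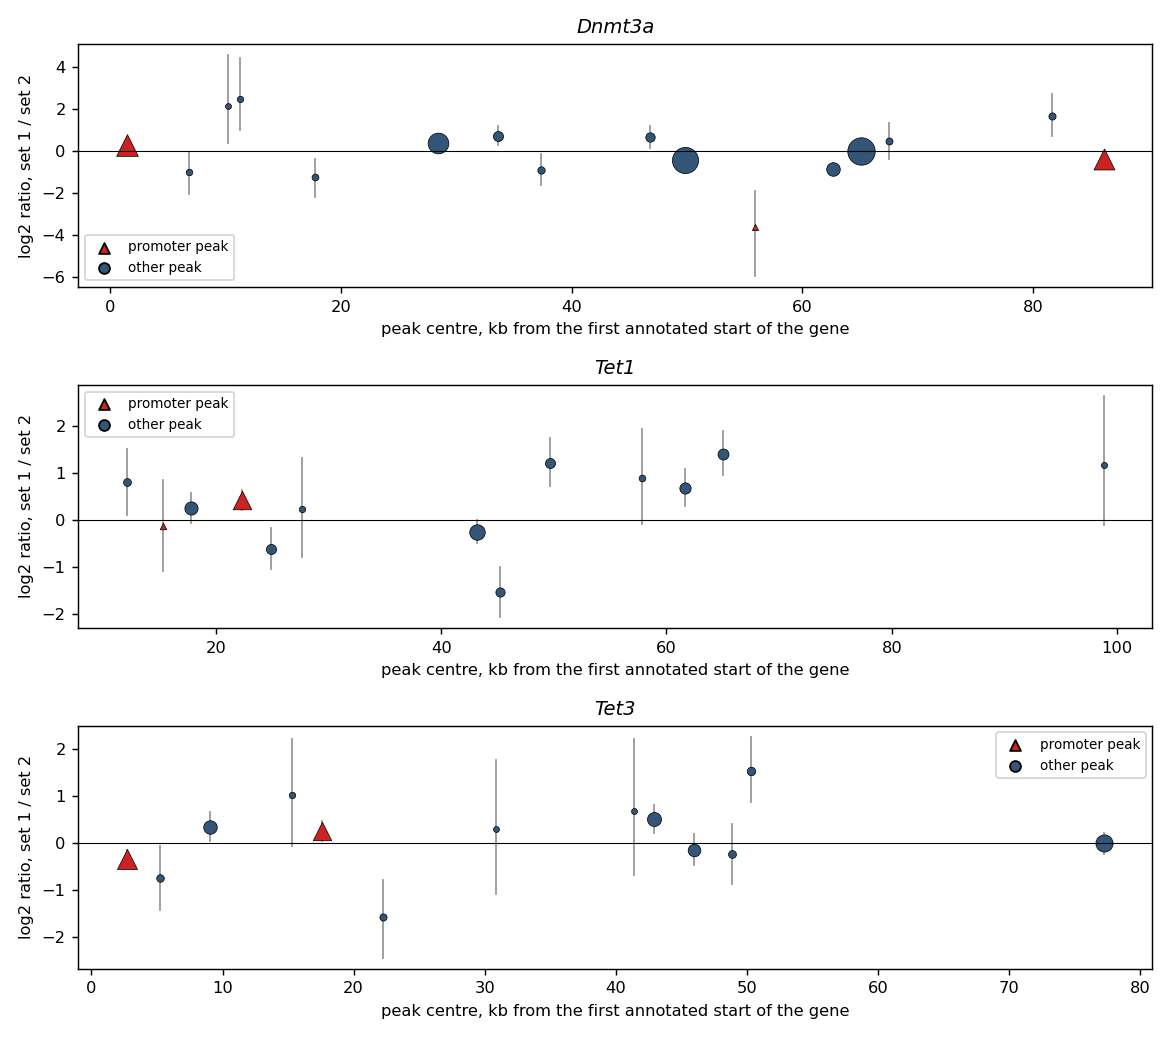
Log2 ratio of CPM (set 1 over set 2) of each peak with at least 20 counts against the distance of its centre from the first annotated start, for Dnmt3a, Tet1 and Tet3. Triangles are promoter peaks, circles are other peaks, areas grow with counts and lines are exact 95% intervals. Each gene has peaks with ratios above and below 0, and the 2 large promoter peaks of Dnmt3a (0.32 and -0.38) and of Tet3 (-0.35 and 0.25) lie on opposite sides of 0.

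Among the Polycomb genes, Ezh2 (ENSMUSG00000029687.16, chr6:47530139-47595341, minus strand) had almost all its counts, 96.4%, in the promoter peak chr6:47593918-47596052. This peak had 55.6 CPM (51.7 to 59.8) in set 1 against 61.1 (56.3 to 66.2) in set 2, a log2 ratio of -0.14 (-0.29 to 0.023). It was open in 31.3% of cells of each set. The single other peak, chr6:47561404-47561812, held 50 counts and had a log2 ratio of -0.29 (-1.15 to 0.57).

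Bmi1 (ENSMUSG00000026739.13, chr2:18677018-18686629, plus strand) had promoter peaks with 42.2 CPM (38.8 to 45.9) in set 1 against 33.7 (30.2 to 37.5) in set 2, a log2 ratio of 0.32 (0.13 to 0.53). The ratio was lower under some other treatments of the counts, with intervals that overlap the reported one, and the reason was not tested. It was 0.22 (-0.086 to 0.53) with each peak counted once per cell, 0.24 (0.022 to 0.45) without the 57 cells that had over 3 times the median counts, and 0.032 (-0.35 to 0.42) at equal depth per cell. The peak at the gene start, chr2:18676179-18678267, had a log2 ratio of 0.25 (0.011 to 0.48), and the peak chr2:18680813-18681510, at internal starts, of 0.53 (0.15 to 0.92). Counted once per cell both intervals include 0, at 0.092 (-0.28 to 0.47) and 0.49 (-0.064 to 1.06). The only other peak, chr2:18671791-18673146, is the promoter of the neighbouring gene Commd3, with 36.9 CPM in set 1 and 32.3 in set 2, so it cannot be assigned to Bmi1. The Bmi1 promoter carries SP/KLF words on both strands and an E-box word, in a stretch with 21 CpG dinucleotides.
Bmi1 promoter, chr2:18676768-18677017: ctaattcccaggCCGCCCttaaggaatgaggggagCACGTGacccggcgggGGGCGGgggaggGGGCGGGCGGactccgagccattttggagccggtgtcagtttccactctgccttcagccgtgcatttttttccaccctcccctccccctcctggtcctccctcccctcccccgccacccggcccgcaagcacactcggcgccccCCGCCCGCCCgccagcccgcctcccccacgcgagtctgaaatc

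Asxl1 (ENSMUSG00000042548.14, chr2:153345829-153404007, plus strand) had 68.6 CPM (64.2 to 73.2) in set 1 against 62.0 (57.2 to 67.1) in set 2 at its promoter peak, chr2:153344925-153347529. The log2 ratio was 0.15 (-0.0051 to 0.30). At equal depth per cell it was -0.043 (-0.33 to 0.24), and no direction could be told. Its other peak, the intronic chr2:153350444-153351318, had 9.27 CPM in set 1 and 8.25 in set 2.

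Kmt2a (ENSMUSG00000002028.13, chr9:44803355-44881296, minus strand) had the highest share of cells open at a single promoter peak among the 10 genes. The peak chr9:44878774-44883456 is 4683 bp wide, was open in 44.6% of cells of set 1 and 40.4% of set 2, and had 96.2 CPM (91.0 to 102) in set 1 against 92.0 (86.1 to 98.2) in set 2. The log2 ratio was 0.066 (-0.059 to 0.19). Per kb of peak its level over both sets was 20.2 CPM, above 60.7% of genes. In the gene body, the intronic peak chr9:44868743-44869021 had 5 counts in set 1 and 26 in set 2, a log2 ratio of -2.79 (-4.53 to -1.38). The exonic peak chr9:44841233-44841657 had 4.52 CPM in set 1 and 2.34 in set 2, a log2 ratio of 0.95 (0.23 to 1.71) that included 0 when counted once per cell (0.87, -0.097 to 1.93).

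**Figure D3:**
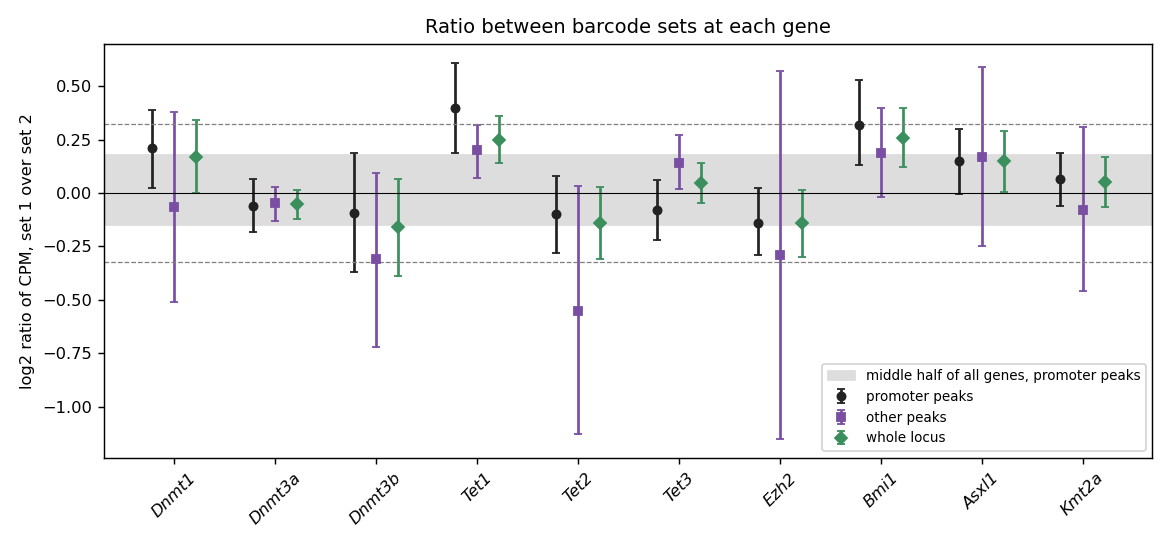
Log2 ratio of CPM (set 1 over set 2) in the promoter peaks, the other peaks and the whole locus of each gene, with exact 95% intervals. The grey band is the interquartile range of the promoter ratios of all 14875 genes (-0.15 to 0.18) and dashed lines mark log2 ratios of 0.32 and -0.32. The promoters of Tet1 (0.40) and Bmi1 (0.32) and the other peaks of Tet2 (-0.55) reach the dashed lines, and no whole locus does. The other peak and the locus of Bmi1 include the promoter peak of Commd3.

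Over all 10 genes, 47 non-promoter peaks had at least 20 counts, leaving out the promoter of Commd3. Of these 26 (55.3%) differed at least 1.5-fold, 15 higher in set 1 and 11 in set 2. Among the 63511 non-promoter peaks of the table with as many counts, 46.3% did, 23.5% higher in set 1 and 22.9% in set 2. The share at the 10 genes was thus near that of all such peaks. For 13 of the 26 the intervals excluded 0 both as counted and once per cell. The share of all non-promoter peaks that meet this rule was not determined. A further 19 other peaks had fewer counts and were not compared, and 4 of the 83 peaks held no count in either set. The 26 peaks were mostly found in the genes with many peaks: 22 of 35 in Dnmt3a, Tet1 and Tet3, and 4 of 12 in the other 7. This split was not compared with that in genes outside the 10. The standard deviation of the log2 ratios over the other peaks of a gene was 1.22 in Dnmt3a, 0.89 in Tet1 and 0.85 in Tet3. The median over 1199 genes with at least 8 such peaks was 0.90, so Tet1 and Tet3 were close to it and Dnmt3a above it, with weak peaks included.

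The share of cells open at each promoter was then compared at equal depth, with each cell thinned to 4899 counts (749 cells in set 1 and 560 in set 2). The Dnmt3a promoters were open in 29.5% (26.3 to 32.9%) of cells of set 1 and 30.5% (26.7 to 34.5%) of set 2. Kmt2a followed with 29.1% and 26.8%, Tet3 with 25.0% and 24.1%, Asxl1 with 21.5% and 22.9%, and Ezh2 with 20.0% and 19.5%. Lower shares were found for Tet2, with 17.6% and 17.5%, Dnmt1, with 17.0% and 13.6%, Tet1, with 14.4% and 10.7%, and Bmi1, with 12.6% and 12.1%. Dnmt3b was lowest with 7.61% (5.81 to 9.75%) and 7.14% (5.15 to 9.60%). The intervals of both sets overlapped for each gene. Within a set, the intervals of neighbors in this order overlapped as well, except that in set 1 the interval of Dnmt3b lay below that of Bmi1 (10.3 to 15.1%). The median over all gene promoters was 11.9% in set 1 and 11.8% in set 2. For comparison, of the 5 granulocyte and monocyte markers 3 had a promoter peak, and these promoters were open in 0.382% (Csf1r), 1.07% (Mpo) and 12.6% (Elane) of cells of both sets at the same depth. Without thinning the Dnmt1 promoter was open in 28.5% and 24.5% of cells.

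**Figure D4:**
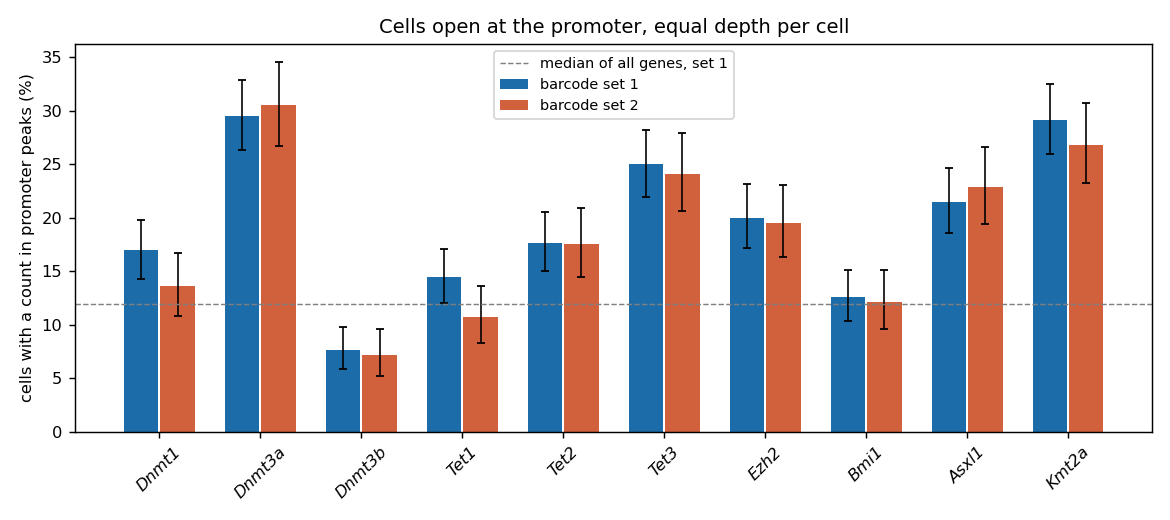
Percent of cells with at least 1 count in the promoter peaks of each gene at equal depth (4899 counts per cell), in set 1 (749 cells) and set 2 (560 cells), with exact 95% Clopper-Pearson intervals. Shares range from 7.14% at Dnmt3b to 30.5% at Dnmt3a, 8 of the 10 genes are above the dashed median of all genes in set 1 (11.9%) in both sets, and the intervals of the sets overlap at each gene.

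At this depth the median cell had 2 of the 10 promoters open in either set, with quartiles of 1 and 3. No promoter was open in 94 cells of set 1 and 75 of set 2, which is 12.6% and 13.4%. The highest number was 6 in set 1 and 7 in set 2. In unthinned cells the median was 3 in both sets.

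**Figure D5:**
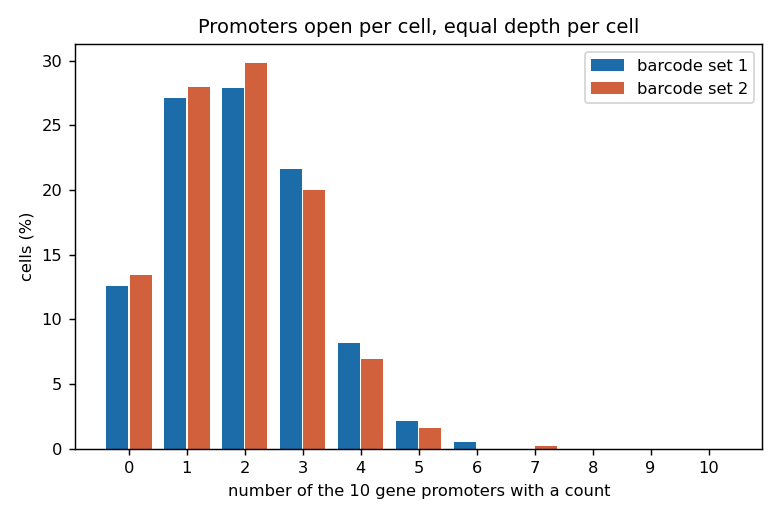
Percent of cells by the number of the 10 gene promoters with a count, at 4899 counts per cell, for set 1 (749 cells) and set 2 (560 cells). Both distributions peak at 2 promoters (27.9% and 29.8% of cells) and nearly coincide.

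Sequence features were not used in the choice of genes, and they are described here without a test. The words searched were chosen with earlier results of these data known. RefSeq windows from 250 bp before to 50 bp after the start were found for all 10 genes, 14 in number, and 13 overlapped a promoter peak. Some windows of a gene overlap each other, and the values over all windows include those without a peak. The GC content of the 14 was 51.3 to 82.3%, against a median of 52.7% over 32851 windows. The 13 windows under a peak had CpG ratios of 0.468 to 1.17, against a median of 0.384. The window without a peak, at the outermost start of Dnmt1, had a ratio of 0.101 and 2 CpG dinucleotides. The SP/KLF word GGGCGG occurred in 11 of 14 windows, against 35.7% of all windows, and the PU.1 core GAGGAA in 5 of 14, against 28.3%. The longer PU.1 and ETS words, found in 3.20% and 3.89% of all windows, and the AP-1 and GATA words, in 7.81% and 3.04%, occurred in none of the 14. In the 300 bp centres of the 47 non-promoter peaks the median GC content was 49.0%, near the 48.7% of all such peaks. The PU.1 word was found in 3 of 47, against 7.85%, and the PU.1 core in 11 of 47, against 38.8%. Among the peaks past the fold, the PU.1 word occurred in 1 of 15 higher in set 1 and 1 of 11 higher in set 2. Over all such peaks of the table its shares were 4.96% and 13.8%. The core occurred in 4 of 15 and 4 of 11, beside 35.3% and 49.0%.

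A list of 101 other genes of the same pathways was examined in the same way. It had been chosen with earlier results of these data known. At the promoter 100 genes had at least 50 counts, of which 7 passed the fold with the higher value in set 1 and 6 in set 2, beside 23.7% of all genes. The median log2 ratio was -0.0062. Over whole loci, 5 of 101 passed the fold with the higher value in set 1 and 6 in set 2, beside 23.8% of all genes. Counted once per cell, 6 promoters and 6 loci of the list passed, and the share of all genes under this counting was not determined. The intervals of the listed genes below are as counted only, so they are too narrow, and once-per-cell values are not given for them.

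Of 16 further genes of the DNA methylation machinery, none passed the fold at the promoter with the higher value in set 1, and 2 did in set 2. The shares of all genes were 13.4% and 10.3%. The median log2 ratio of the group was -0.087. Hells, a chromatin remodeler needed for DNA methylation, had 17.5 CPM (15.3 to 19.9) in set 1 against 25.1 (22.0 to 28.4) in set 2, a log2 ratio of -0.52 (-0.79 to -0.25). Trim28, a corepressor that protects methylated imprints, had 52.7 CPM in set 1 and 68.8 in set 2, a log2 ratio of -0.38 (-0.54 to -0.23). The highest ratios of this group were 0.23 (-0.00015 to 0.46) at Zbtb38, which binds methylated DNA, and 0.14 (0.037 to 0.24) at Idh1, a metabolic enzyme whose mutant form inhibits TET enzymes. Uhrf1, which guides DNMT1 to hemimethylated DNA, had a promoter log2 ratio of -0.31 (-0.49 to -0.14), just short of the fold. Its locus just passed it, with 44.1 CPM in set 1 and 55.1 in set 2, a log2 ratio of -0.32 (-0.49 to -0.15). The locus held 1116 counts, of which 1111 lay in the promoter peak, so both values describe nearly the same counts. Uhrf1 was named after its values were seen.

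Of 27 Polycomb genes, 26 had at least 50 promoter counts, and 1 passed the fold in each direction. Among all genes 13.4% passed it with the higher value in set 1 and 10.3% in set 2. Ezh1, the paralog of Ezh2, had 15.6 CPM (13.5 to 17.8) in set 1 against 11.3 (9.30 to 13.6) in set 2 at its promoter, a log2 ratio of 0.46 (0.12 to 0.81). Over its whole locus it had 59.8 CPM in set 1 and 26.3 in set 2, a log2 ratio of 1.19 (0.98 to 1.39), whereas the Ezh2 locus had -0.14 (-0.30 to 0.014). Bap1, the partner of ASXL1, had a log2 ratio of 0.31 (0.13 to 0.50). Aebp2, a PRC2 cofactor, had 36.9 CPM in set 1 and 48.3 in set 2, a log2 ratio of -0.39 (-0.58 to -0.20), and Cbx2, a PRC1 subunit, of -0.20 (-0.43 to 0.019).

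Of 20 MLL and Trithorax genes, 2 promoters passed the fold with the higher value in set 1 and 1 in set 2. The shares of all genes were 13.4% and 10.3%. Men1, which encodes the KMT2A cofactor menin, had 62.5 CPM in set 1 and 47.0 in set 2, a log2 ratio of 0.41 (0.24 to 0.58), and Dpy30, a subunit of the same complexes, of 0.37 (0.16 to 0.58). Dot1l, the histone H3 lysine 79 methyltransferase, had 57.5 CPM in set 1 and 81.7 in set 2, a log2 ratio of -0.51 (-0.65 to -0.36). Ash2l, another subunit, had -0.22 (-0.38 to -0.055). Of 38 other genes mutated in clonal hematopoiesis, 4 promoters passed the fold with the higher value in set 1 and 2 in set 2. The shares of all genes, again 13.4% and 10.3%, were close to these. Ptpn11, a phosphatase of the RAS pathway, had 31.3 CPM in set 1 and 24.1 in set 2, a log2 ratio of 0.38 (0.14 to 0.61). The lowest were Ctcf, a chromatin insulator protein, at -0.35 (-0.52 to -0.18) and Cebpa, a myeloid transcription factor, at -0.33 (-0.52 to -0.15).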

How the data were processed

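Single-cell ATAC-Seq was performed by the authors on sorted LT-HSC nuclei. Cell Ranger ATAC 1.2.0 and the builds mm10 and GRCm38 are named in the submitters' processing notes. The deposited values are counts per peak and cell barcode, whole numbers with no stated normalization. Any scaling of depth between the libraries is not given in the sources used here. The second of 2 deposited tables has no peak names and was not used here.

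Gene positions are from GENCODE M21 (GRCm38). Peak positions were taken as 0-based and are printed 1-based. No cell was removed and no doublet caller was run, so 57 cells over 3 times the median depth were kept. Counts were summed per set and divided by the set total (CPM). Ratios carry exact conditional binomial intervals, CPM exact Poisson intervals and shares Clopper-Pearson intervals. Gene sums needed 50 counts and a log2 ratio of 0.32 in size to pass the fold, single peaks 20 counts and 1.5-fold. For shares, counts of each cell were drawn without replacement down to 4899 (the 10th percentile), leaving out 69 cells of set 1 and 76 of set 2. Median depth was 13358.5 counts per cell in set 1 and 12755.0 in set 2. The genes, lists and words were chosen with earlier results of these data known. Named peaks were the most counted promoter and other peak per gene and the 12 other peaks with the largest ratio whose interval excluded 0, and of each pathway group the 2 highest and 2 lowest promoter ratios. Some items that this rule names are not reported here. Peaks described beyond these, and Uhrf1, Csf1r, Mpo and Elane, were chosen after their values were seen. Likeness of pattern between genes is not defined with 2 sets. The calculations were checked on simulated data with Python 3.11.15, numpy 2.4.6 and scipy 1.17.1.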

Additional observations from a re-analysis of the deposited data

How the results depend on the processing

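Set totals, promoter totals, median-of-ratios scaling, once-per-cell counting, thinning, removal of deep cells, other windows and a pseudocount were compared. Of 299 single ratios of the 10 genes, 292 stayed within the counting interval of the reported value and 7 left it. Those were the Bmi1 and Asxl1 promoters (0.032 and -0.043) and loci (0.087 and 0.0026) in thinned cells, the other peaks of Dnmt3b with a promoter window of 2500 bp (0.52), and the other peaks (0.64) and locus (0.28) of Kmt2a with 25000 bp upstream. The 2 promoters past the fold became 0 with once-per-cell counting or at a fold of 1.5, and 1 with median-of-ratios scaling, in thinned cells, without cells over 3 times the median counts and with a pseudocount of 1 CPM. The locus count of 0 became 1 without those cells (Tet1) and 1 with the gene body only (Bmi1, without the promoter peak of Commd3). The count of 1 for other peaks became 2 counted once per cell, 4 in thinned cells, 3 without deep cells, 0 at a fold of 1.5, 2 with a promoter window of 2500 bp and 2 with 25000 bp upstream. Of 26 single peaks, 17 were left with at least 50 counts each. The median promoter share over the 10 genes was 18.8% and 18.5% in sets 1 and 2, 29.9% and 29.3% without thinning, and 6.01% and 7.05% with at least 2 counts per cell. The pathway list had 13 promoters and 11 loci past the fold, 1 and 2 at a fold of 1.5, and 6 and 6 counted once per cell. The causes were not tested. With the gene body only, Bmi1 had no other peak and gave no value. No paired analysis was possible because each sample pooled 4 mice and the cells carry no mouse label. The barcode sets are also not mapped to samples, and no test was made. Depth limits single peaks, and 19 of the other peaks had under 20 counts.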
